A study of Mus musculus with 36 samples.

Results

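The genes described here are 10 genes whose proteins build the node of Ranvier and its flanks. They were taken by gene symbol, not by their values, from a count table of 55487 genes. Scn8a, Scn2a and Scn1a encode the pore-forming subunits of voltage-gated sodium channels Nav1.6, Nav1.2 and Nav1.1. Kcna1 and Kcna2 encode the potassium channels Kv1.1 and Kv1.2. Ank3 encodes the scaffold ankyrin-G, and Cntn1, Cntnap1, Cntnap2 and Nfasc encode the adhesion molecules contactin-1, Caspr, Caspr2 and neurofascin.

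RNA was sequenced in bulk from C57BL/6 mice of 2 to 4 months of age, from retina, unmyelinated optic nerve (UON, the segment next to the globe) and myelinated optic nerve (MON, the segment behind the myelin transition zone). The 36 libraries came from naïve mice, from mice 3 days (3D) or 2 weeks (2W) after unilateral optic nerve crush, and from mice 3D, 2W or 6 weeks (6W) after unilateral microbead injection into the anterior chamber, a model of ocular hypertension called glaucoma in the labels. Each of the 18 groups held 2 libraries, 1 from a pool of 2 female mice and 1 from a pool of 2 male mice, and the same mice gave all 3 tissues. The libraries of a group therefore differed in sex as well as in mice, and p-values measured the spread between these pools. No transgene or sham surgery was named in the labels. Summed counts per library ranged from 16.2 M to 58.5 M in UON, from 16.3 M to 78.1 M in MON and from 19.9 M to 56.0 M in retina. The summed FPKM (a level corrected for transcript length and library size) of 6 photoreceptor markers in the nerve libraries was between 0.0123% and 0.448% of the naïve retinal mean of 24602, and the summed level of 6 oligodendrocyte markers was 17404 and 13596 FPKM in naïve MON, 2504 and 1843 in naïve UON and 20.03 and 19.3 in naïve retina (female and male pool). RGCs send their axons through the UON, where they carry no myelin, into the MON, where oligodendrocytes wrap them. In bulk tissue, fewer cells of a type and less RNA per cell cannot be told apart.

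By way of background, a node of Ranvier is the short bare stretch between myelin segments where sodium channels regenerate the action potential. Ankyrin-G anchors those channels and the neuronal form of neurofascin, NF186. On each side lies the paranode, where contactin-1 and Caspr of the axon bind the glial form of neurofascin, NF155, and beyond it the juxtaparanode, where Caspr2 holds the Kv1 channels. Most of these proteins are made in the neuronal cell body, so that the mRNA of a node component in a nerve segment need not come from the axon that bears the node. NF155 is made by myelinating glia, and astrocytes and oligodendrocyte-lineage cells also express several of these genes.

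The shares of the transcripts counted for Nfasc and Cntnap2 differed between the tissues. For Nfasc the exons that tell transcripts apart are shown here, and for Cntnap2 the bases before the transcript starts. The gene Nfasc (ENSMUSG00000026442, GRCm38 chr1:132564690-132741797, minus strand) has a coding exon found in NF186 transcripts, and another one found in NF155 transcripts that encodes part of an additional fibronectin type III repeat. Capitals mark the exon and lower case the 15 bases of the neighbouring exons in the spliced transcript. The 117-base NF186 exon lay at chr1:132584364-132584480 and was in 2 of 10 annotated transcripts, and the 116-base NF155 exon lay at chr1:132600099-132600214 and was in 5 of 10.
NF186 exon: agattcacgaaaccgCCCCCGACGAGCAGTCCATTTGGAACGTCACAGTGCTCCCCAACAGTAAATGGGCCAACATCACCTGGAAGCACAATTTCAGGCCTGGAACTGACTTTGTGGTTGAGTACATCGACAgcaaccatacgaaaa
NF155 exon: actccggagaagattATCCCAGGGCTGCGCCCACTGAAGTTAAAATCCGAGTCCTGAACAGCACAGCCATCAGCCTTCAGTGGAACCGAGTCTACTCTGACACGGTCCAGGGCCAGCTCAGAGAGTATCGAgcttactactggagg

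Cntnap2 (ENSMUSG00000039419, chr6:45059357-47304213, plus strand) has a full-length transcript of 24 exons and 9827 bases, of which 3996 are coding, and a short transcript of 4 exons and 6279 bases, of which 324 are coding. The short transcript starts 2184 kb downstream of the full-length one inside the gene, and 6116 of its bases also belong to exons of the full-length transcript. The 250 bases before each start in RefSeq (GRCm38.p6) are given with CG dinucleotides in capitals, because the tissues differed in the shares of these transcripts. These windows lie before the starts and are not what the transcript counts rest on. The window before the full-length start, chr6:45059811-45060060, had 13 CG dinucleotides and a GC content of 59.6%. The window before the internal start, chr6:47244146-47244395, had 3 CG dinucleotides and a GC content of 45.2%, and its last 9 bases belong to the counted short transcript, whose annotated start lies further upstream than the RefSeq one. Across 32851 RefSeq windows of the same length the medians were 6 CG dinucleotides and 52.4% GC, and 68.5% of windows had fewer CG than the full-length window while 29.0% had fewer than the internal one. The letters TATAAA, searched on both strands, were in neither window and in 12.4% of all windows.
full-length start: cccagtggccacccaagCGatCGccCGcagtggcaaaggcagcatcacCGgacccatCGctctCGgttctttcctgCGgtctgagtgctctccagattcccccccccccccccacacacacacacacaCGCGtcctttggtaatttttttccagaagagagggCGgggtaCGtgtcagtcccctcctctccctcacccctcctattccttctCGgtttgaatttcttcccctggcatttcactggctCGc
internal start: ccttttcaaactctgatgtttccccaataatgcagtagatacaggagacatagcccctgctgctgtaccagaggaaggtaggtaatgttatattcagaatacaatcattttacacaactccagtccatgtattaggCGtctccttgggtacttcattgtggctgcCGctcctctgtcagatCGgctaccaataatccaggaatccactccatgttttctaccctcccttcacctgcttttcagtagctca

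Levels between genes were compared per length, in the deposited FPKM. In naïve MON the order of mean levels was Kcna1 (66.7 ± 40.0 FPKM, SD, n = 2), Nfasc (57.5 ± 5.03), Ank3 (36.8 ± 9.53), Cntn1 (15.4 ± 4.58) and Kcna2 (3.22), and each of the sodium channel genes, Cntnap1 and Cntnap2 lay below Kcna2. In naïve UON it was Nfasc (13.2 ± 2.42 FPKM), Ank3 (13.1 ± 2.63), Kcna1 (10.8 ± 4.16), Cntnap2 (9.0 ± 3.44) and Cntn1 (4.14 ± 0.00774), with the remaining 5 genes at 1.41 FPKM or less. Naïve retina had Ank3 (30.3 ± 2.60 FPKM), Cntn1 (16.3 ± 0.779), Nfasc (13.9 ± 1.0), Scn1a (13.3 ± 1.55) and Cntnap2 (10.1 ± 1.02) at the top. Nfasc, Ank3 and Cntn1 were thus among the leading 5 in all 3 tissues, whereas Kcna1 was among them in the nerve segments but not in retina, and a sodium channel gene was among the leading 5 in retina and in neither nerve segment. The ranges of the pools overlapped between neighbours in this order in 5 of 9 pairs in UON (Nfasc and Ank3, Ank3 and Kcna1, Kcna1 and Cntnap2, Kcna2 and Scn8a, Scn8a and Scn1a), in 3 of 9 in MON (Kcna1 and Nfasc, Scn2a and Scn8a, Scn8a and Cntnap1) and in 4 of 9 in retina (Nfasc and Scn1a, Scn2a and Scn8a, Scn8a and Kcna1, Kcna1 and Kcna2). The leading gene made up 34.9 ± 14.5% of the summed level of the 10 genes in MON, 24.4 ± 4.46% in UON and 27.5 ± 3.16% in retina.

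The naïve tissues were compared to ask how the region along the RGC axon relates to the expression of these genes. A gene was called where the adjusted p of edgeR's quasi-likelihood test (Benjamini-Hochberg, over all genes tested) was under 0.05 and the log2 fold change was beyond 1 in size. Between naïve UON and MON, Nfasc, Cntn1, Kcna1 and Ank3 were lower in UON, Cntnap2 was higher in UON, and the other 5 genes were not called. Against retina, all 3 sodium channel genes were lower in both nerve segments. Of the 10 genes 5 were called between UON and MON, where 9.63% of all 23685 genes tested were called, 5 between UON and retina (31.7% of all genes) and 8 between MON and retina (27.6%). The median log2 difference of the 10 genes was -1.34, -1.18 and -1.08 in these comparisons, beside -0.06, -0.17 and 0.00 over all genes.

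Levels of a gene across libraries are given as CPM (counts scaled to a common library size, with TMM factors over all 36 libraries), female pool before male pool. All 3 sodium channel genes were far lower in nerve than in retina. Scn1a, the channel of axon initial segments and nodes in fast-firing neurons, was at 73.8 and 64.2 CPM in naïve retina, 1.19 and 2.51 in UON and 1.51 and 1.32 in MON. The log2 difference from retina was -5.31 (SE 0.41, edgeR adjusted p = 9.63e-05) in UON and -5.58 (SE 0.42, adjusted p = 0.000106) in MON. Scn8a, whose product is the main channel of mature nodes, was at 38.5 CPM in both retinal pools, 3.14 and 0.621 in UON and 4.85 and 3.43 in MON, with log2 differences from retina of -4.66 (adjusted p = 0.00113) and -3.30 (adjusted p = 0.00446). Scn2a, whose product occupies unmyelinated axons and immature nodes, was at 28.6 and 32.2 CPM in retina, 7.39 and 5.73 in UON and 6.59 and 5.83 in MON, with log2 differences from retina of -2.26 and -2.30 (adjusted p = 0.0014 and 0.00149). For each of the 3 genes every nerve pool lay below both retinal pools. Between UON and MON the log2 differences of Scn8a, Scn2a and Scn1a were -1.36 (SE 0.56, edgeR adjusted p = 0.19), 0.04 and 0.27, and the values of Scn2a and Scn1a overlapped between the segments. Without the female UON pool Scn8a was called lower in UON (-2.66, adjusted p = 0.0017).

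**Figure D1:**
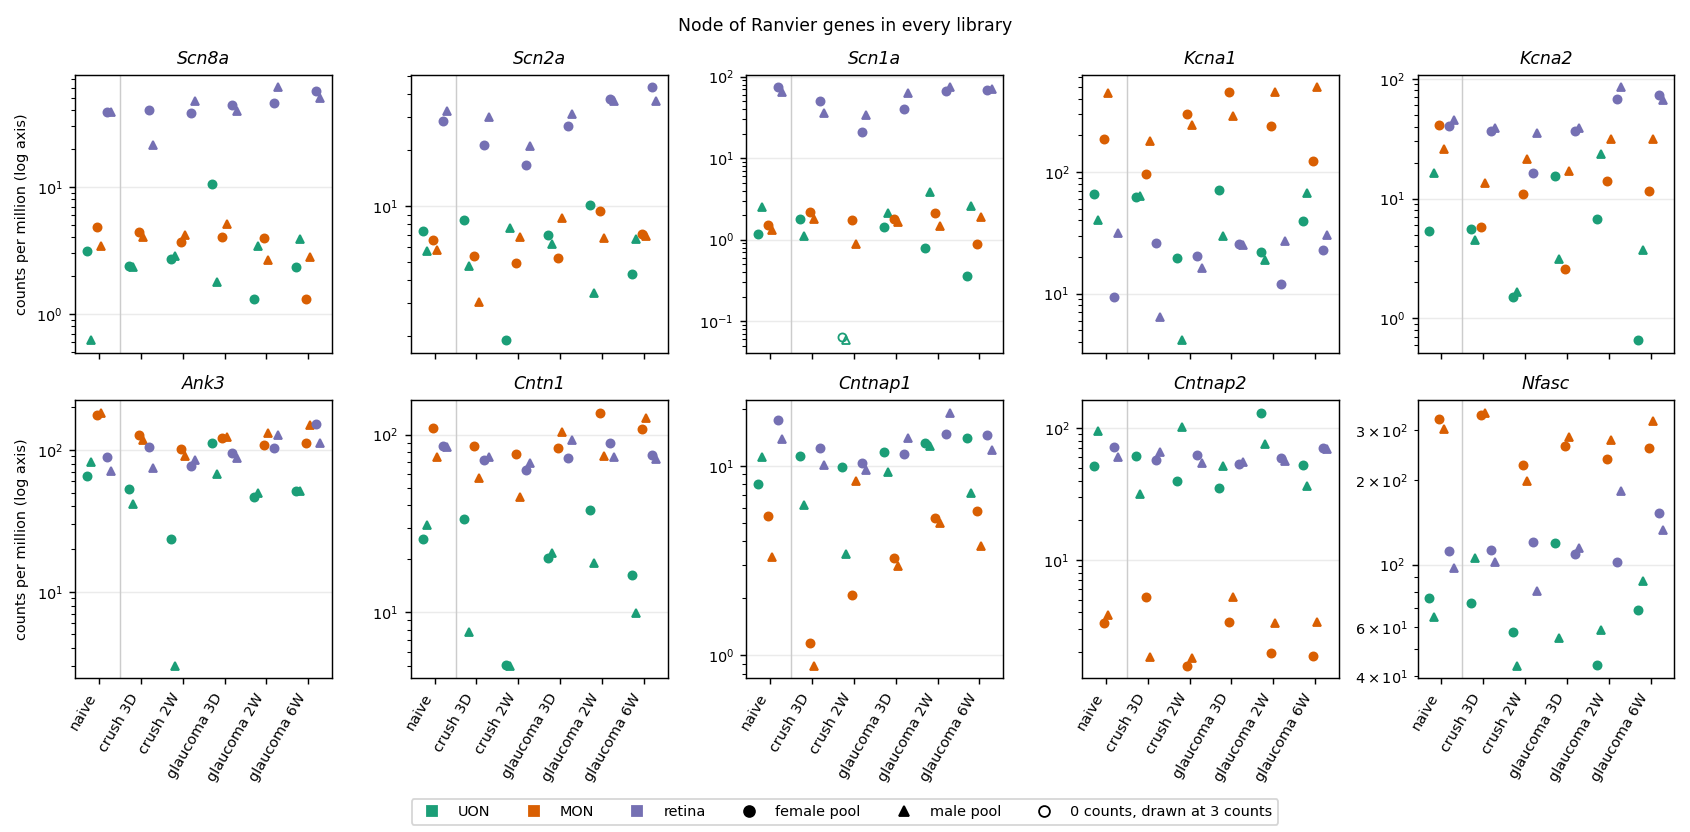
Level of each gene in CPM (log axis) in all 36 libraries by condition, with tissue by color and the female and male pool by symbol. Open symbols mark 0 counts, drawn at the level of 3 counts. Sodium channel genes lay highest in retina, Kcna1 highest in MON in every condition, and Cntnap2 lower in MON than in UON and retina.

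The Kv1 channel genes differed in how they stood between the tissues. Kcna1, the Kv1.1 subunit, was at 187 and 448 CPM in naïve MON, 65.4 and 40.4 in UON and 9.41 and 31.8 in retina, so that the 3 tissues did not overlap. It was lower in UON than in MON (log2 difference -2.36, SE 0.57, edgeR adjusted p = 0.0439) and higher in MON than in retina (4.01, SE 0.59, adjusted p = 0.0021), and the difference of UON from retina was 1.65 (SE 0.57, adjusted p = 0.0613), which DESeq2 called (adjusted p = 0.0044). The call between UON and MON was lost without the female MON pool (adjusted p = 0.0723) or the male one (adjusted p = 0.128). Kcna2, the Kv1.2 subunit that assembles with Kv1.1, was at 41.0 and 25.8 CPM in MON, 40.3 and 45.5 in retina and 5.35 and 16.2 in UON. It was lower in UON than in retina (-2.11, SE 0.49, adjusted p = 0.0141), whereas its difference between UON and MON, -1.80 (SE 0.50, adjusted p = 0.0696), was not called although the pools did not overlap. DESeq2 called it (-1.74, adjusted p = 0.00432). By edgeR it was called when the male UON pool, the male MON pool or either retinal pool was left out.

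Ank3, the scaffold of nodes and axon initial segments, was at 178 and 183 CPM in naïve MON, 66.0 and 82.6 in UON and 89.7 and 70.8 in retina. MON exceeded UON (log2 difference of UON from MON -1.32, SE 0.23, edgeR adjusted p = 0.0147) and retina (1.17, SE 0.23, adjusted p = 0.00787), while UON and retina overlapped (-0.15). The call between UON and MON was lost without the female UON pool (adjusted p = 0.0679), and that between MON and retina without the male retinal pool (adjusted p = 0.098). The giant exon of Ank3 marks the long neuronal ankyrin-G forms of nodes and initial segments. Its span, chr10:69986083-69993762 (7680 bases), held coding bases of 6 of 47 annotated transcripts. Any coding bases in the span sufficed, so these 6 transcripts need not carry the whole exon or encode the long forms. Those transcripts held 16.6% and 52.2% of Ank3 transcript counts in naïve UON, 62.7% and 26.8% in MON and 27.3% and 37.9% in retina. These shares overlapped between all 3 tissues.

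Of the paranodal genes, Cntn1 was at 109 and 74.5 CPM in naïve MON, 86.1 and 84.8 in retina and 25.9 and 31.0 in UON. It was lower in UON than in MON (log2 difference -1.71, SE 0.24, edgeR adjusted p = 0.00688) and than in retina (-1.62, SE 0.24, adjusted p = 0.00197), and MON and retina overlapped. Cntnap1, whose product Caspr is the axonal partner of contactin-1, followed another order. It was at 17.4 and 13.9 CPM in retina, 7.97 and 11.1 in UON and 5.41 and 3.31 in MON, and was lower in MON than in retina (-1.84, SE 0.41, adjusted p = 0.013) but not called between UON and MON (1.11, SE 0.41, adjusted p = 0.145, and 0.0499 by DESeq2, which called it) or between UON and retina (-0.73). The call between MON and retina was lost without the male MON pool (adjusted p = 0.0603) or the female retinal pool (adjusted p = 0.0683). Exons of Cntnap1 overlap those of Plekhh3 on the opposite strand by 233 bases, and whether counting used strand was not stated.

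Nfasc, the gene of both neurofascin forms, was at 330.2 and 304 CPM in naïve MON, 76.3 and 65.2 in UON and 111 and 97.1 in retina. It was lower in UON than in MON (log2 difference -2.21, SE 0.21, edgeR adjusted p = 0.00182) and higher in MON than in retina (1.61, SE 0.20, adjusted p = 0.000968). Its difference of UON from retina was -0.60 (adjusted p = 0.0529). The deposited transcript counts, which StringTie estimates by dividing reads among transcripts, were split by which of the 2 exons a transcript carries. Transcripts with the NF155 exon alone held 95.3% and 95.8% of Nfasc transcript counts in naïve MON, 86.3% and 90.5% in UON and 8.10% and 5.56% in retina. Transcripts with the NF186 exon alone held 2.78% and 2.91% in MON, 12.7% and 8.10% in UON and 90.6% and 92.1% in retina. Nerve and retina therefore counted different neurofascin transcripts at gene levels that differed much less. In CPM, the NF155 transcripts were at 315 and 291 in MON and 65.8 and 58.9 in UON, while the NF186 transcripts were at 9.18 and 8.84 in MON and 9.70 and 5.28 in UON. The lower gene level of UON thus lay in the NF155 transcripts, and the NF186 transcripts overlapped between the segments. The oligodendrocyte marker sum was also lower in UON, and its part in the NF155 level was not tested.

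Over all 12 libraries of a tissue the share with the NF155 exon ran from 92.8% to 98.0% in MON (median 95.7%), from 55.6% to 95.4% in UON (median 87.0%) and from 5.56% to 23.8% in retina (median 9.33%), so that no retinal library reached a nerve library. The share with the NF186 exon ran from 0.968% to 5.90% in MON, from 4.31% to 44.3% in UON and from 72.9% to 92.1% in retina. The male UON pool of crush 3D stood apart from the other UON libraries at 44.3%, and the male UON pool of glaucoma 2W followed at 26.8%. The photoreceptor marker sum was 3.31 FPKM in the former and 110 in the latter, beside 17.8 and 7.36 in naïve UON, and its part in these shares was not tested. In the 4 retinal crush pools the NF155 share was 10.5% and 23.8% at 3D and 16.2% and 20.6% at 2W, above the naïve 8.10% and 5.56%, with the retinal oligodendrocyte marker sum at 16.7 to 19.7 FPKM in these pools beside 19.3 to 20.03 in naïve ones. In the retinal glaucoma pools the NF155 share was 6.93% to 8.10% at 3D, 8.11% to 11.9% at 2W and 8.10% to 11.7% at 6W. These differences in shares were not tested. Over all retinal libraries Nfasc-203, the transcript from which the NF155 exon was taken, held 0.313% of Nfasc transcript counts, Nfasc-201 5.59% and Nfasc-208 5.63%. Nfasc-208 ends at chr1:132599835, ahead of the NF186 exon, so the retinal NF155 share need not be the glial form.

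**Figure D2:**
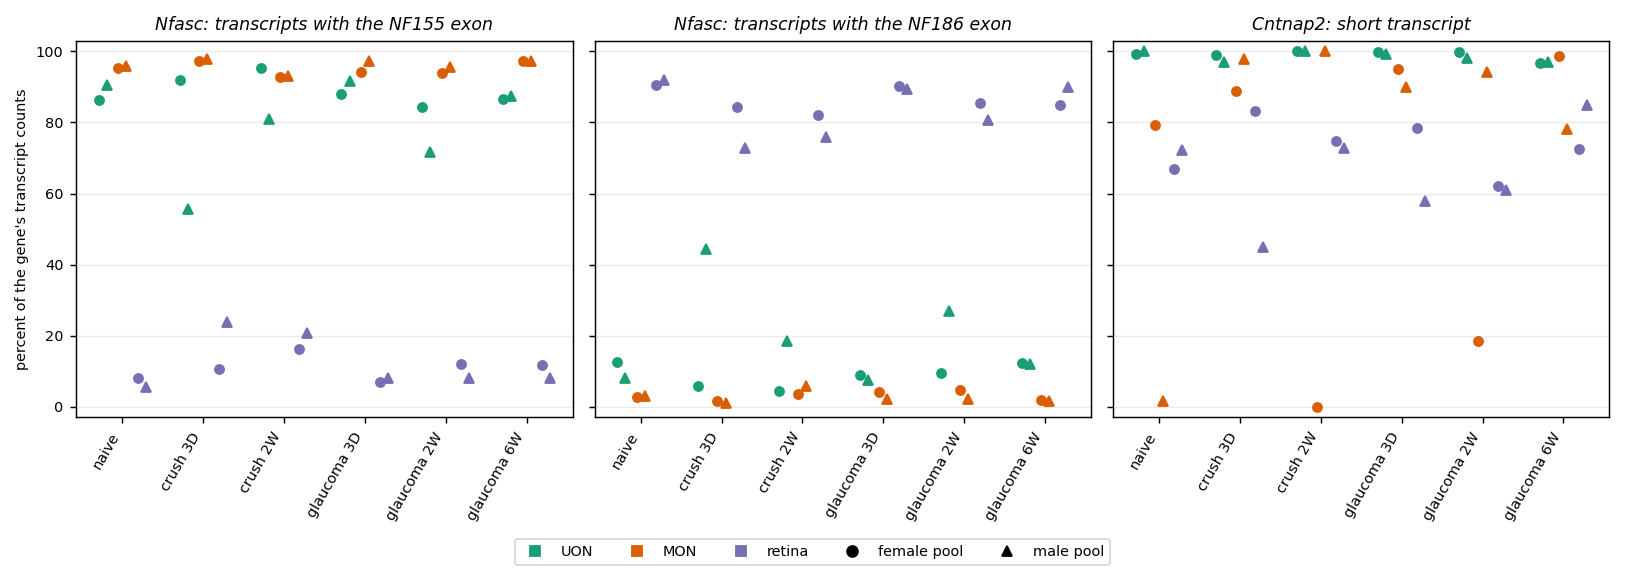
Percent of the transcript counts of Nfasc with the NF155 exon alone and with the NF186 exon alone, and of Cntnap2 in its short transcript, in each library by condition, tissue and pool. NF155 transcripts held at least 55.6% of the counts in every nerve library and at most 23.8% in retina, and the short Cntnap2 transcript held at least 96.7% in UON.

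Cntnap2, the gene of the juxtaparanodal Caspr2, had the largest difference between the nerve segments among the 10 genes. It was at 51.8 and 94.7 CPM in naïve UON, 72.3 and 60.2 in retina and 3.31 and 3.85 in MON. The log2 difference of UON from MON was 4.28 (SE 0.33, edgeR adjusted p = 0.00139) and of MON from retina -4.23 (SE 0.33, adjusted p = 0.000123), and UON and retina overlapped (0.05, SE 0.29, adjusted p = 0.909). The shares of the transcripts behind the like levels of UON and retina differed, with the short transcript ahead in the naïve pools of both. The short transcript that starts at the internal site shown above held 99.1% and 100% of Cntnap2 transcript counts in naïve UON and 66.9% and 72.3% in retina, and between 96.7% and 100% in all 12 UON libraries against 45.1% to 84.9% in retina. The full-length transcript, which encodes the whole of Caspr2, was at 0.448 and 0 CPM in naïve UON and 23.6 and 16.5 CPM in naïve retina. In MON the gene had 25 to 323 counts a library, and the share of the short transcript ran from 0% to 100%. As the bulk of the short transcript is shared with the full-length one, its counts rest on how StringTie divided the coverage.

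**Figure D3:**
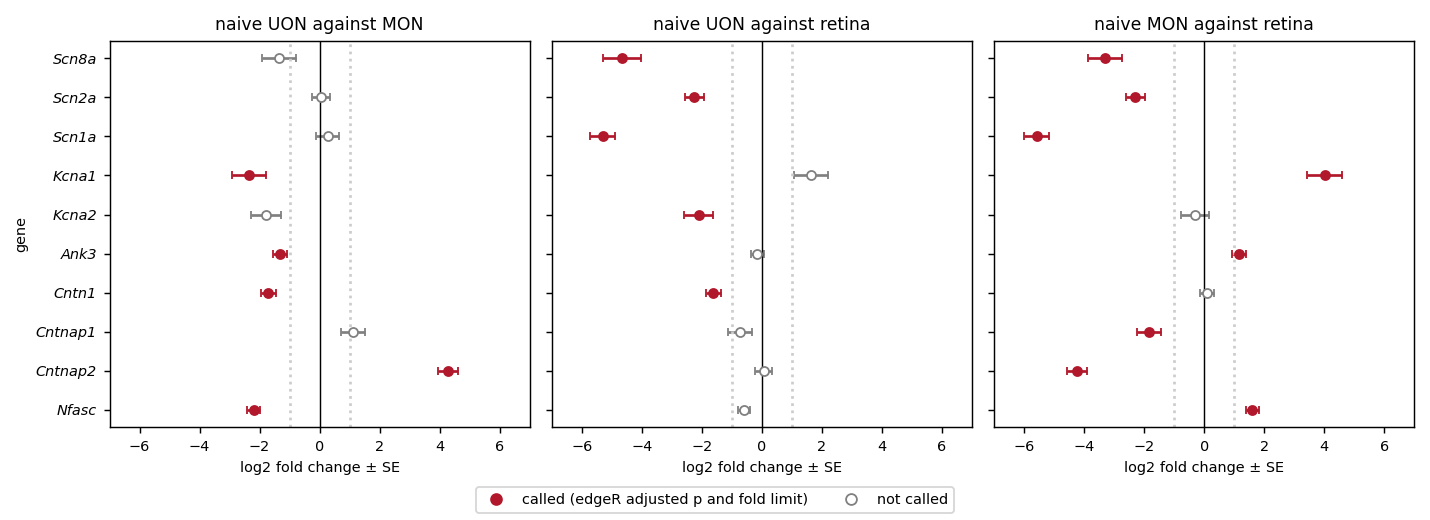
Log2 fold change with its SE for each gene between naïve tissues, with called genes filled (edgeR adjusted p and fold limit) and the fold limit as dotted lines. Points left of 0 are lower in the tissue named first. Cntnap2 stood highest in UON against MON at 4.28, and the 3 sodium channel genes were lower in both nerve segments than in retina.

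Crush was set against naïve tissue at 3D and 2W to ask how axonal injury altered these genes in each region. None of the 10 genes was called by edgeR in any of the 15 comparisons of an injured group with the naïve group of its tissue (150 tests), while 30 of the tests had an unadjusted p under 0.05 and DESeq2 with the same terms and limits called 9. The comparisons of a tissue share its naïve pools. The share of all genes called by edgeR after crush was 0% at 3D and 0.0281% at 2W in UON, 4.26% and 2.72% in MON, and 0.0221% and 0.313% in retina. The residual degrees of freedom were 2 in each crush fit. Where pools of an injured group are said to lie outside the naïve pools, the share of all genes that did so was not computed.

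In UON at crush 2W, 9 of 10 genes had a log2 difference from naïve below 0, with a median log2 difference of -1.57 beside -0.09 over all genes, and 5 genes had an unadjusted p under 0.05, where 9.27% of all genes had one. Ank3 was at 23.4 and 3.01 CPM beside 66.0 and 82.6 in naïve UON (-2.94, SE 0.80, edgeR adjusted p = 0.482). Kcna1 was at 19.6 and 4.13 CPM beside 65.4 and 40.4 (-2.39, SE 0.56, adjusted p = 0.448). Kcna2 was at 1.5 and 1.67 CPM beside 5.35 and 16.2 (-2.67, SE 0.72, adjusted p = 0.48). For each of these 3 genes both crush pools lay below both naïve pools, and the share of all genes that did so was not computed. Cntn1 was at 5.05 and 5.01 CPM beside 25.9 and 31.0 (-2.54, SE 0.64, adjusted p = 0.471). Scn1a had 0 counts in both crush 2W pools beside 53 to 105 counts in the naïve ones, at least 30.2-fold lower than the naïve mean of 1.85 CPM with 3 counts per library as the floor. This floor covers counting error alone. DESeq2 called these 5 genes, where it called 2.67% of all genes, with adjusted p from 0.000482 for Scn1a to 0.00795 for Kcna2. Cntnap2, at 39.8 and 101 CPM, spanned its naïve pools, and Nfasc was at 57.5 and 43.7 CPM beside 76.3 and 65.2 (-0.50).

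The pools of this group differed from each other. The oligodendrocyte marker sum was 2572 FPKM in the female and 413 in the male crush 2W pool of UON, beside 2504 and 1843 in naïve, and the sum of 4 fibroblast markers was 406 and 1169 beside 486 to 512. The sum of 5 microglia and macrophage markers was 341 and 223 FPKM, beside 112 and 77.9 in naïve UON. The male pool had the lower value of Ank3 and Kcna1, and the part of these markers in the result was not tested. Kcna2, Cntn1 and Scn1a were as low in the female pool as in the male pool. Of 8 RGC markers 3 were at 0 in each crush 2W pool and 1 in each naïve pool, with sums of 54.2 and 44.7 FPKM beside 47.9 and 51.7. These markers did not stand alike in UON. Over all libraries of a tissue the median of Rbpms was 21.6 CPM in UON and 21.1 in retina, and that of Sncg 5.12 and 125. The sum in UON therefore need not follow the RNA of RGCs. Without the female crush 2W pool Ank3 was called (-4.64, edgeR adjusted p = 0.0454), resting on the male pool as the only library of that group. At crush 3D no gene had an unadjusted p under 0.05 in UON by edgeR or a call by DESeq2, and the median log2 difference was -0.28.

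In MON after crush, Kcna1, Kcna2 and Cntnap1 had lower group means at 3D than at 2W, and at 3D these 3 genes had an unadjusted p under 0.05 (21% of all genes). Kcna2 was at 5.78 and 13.4 CPM beside 41.0 and 25.8 in naïve MON (-1.86, SE 0.49, edgeR adjusted p = 0.0828). Kcna1 was at 96.1 and 180 CPM beside 187 and 448 (-1.09, adjusted p = 0.187). Cntnap1 was at 1.17 and 0.881 CPM beside 5.41 and 3.31 (-2.03, adjusted p = 0.195). In each of these genes both crush pools lay below both naïve pools, and the share of all genes that did so was not computed. DESeq2 called Kcna2 (-1.89, adjusted p = 0.00169) and Kcna1 (-1.13, adjusted p = 0.0369), with 12.3% of all genes called. By edgeR, Kcna2 was also called without the male crush 3D pool or without either crush 2W pool, Kcna1 without either crush 2W pool, and Cntnap1 without the female crush 2W pool. At crush 2W the values of Kcna1 (298 and 244 CPM) lay within the naïve range. Cntnap1 (2.08 and 8.34 CPM) had a pool on each side of it, and Kcna2 was at 10.8 and 21.6 CPM (-1.14, adjusted p = 0.302).

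Ank3 in MON was lower than both naïve pools in all 10 injured libraries, at 127 and 118 CPM at crush 3D, 101 and 91.4 at crush 2W, and 109 to 151 over the 6 glaucoma libraries, beside 178 and 183 naïve. The log2 differences were -0.48 and -0.87 after crush (edgeR adjusted p = 0.144 at 2W) and -0.60, -0.60 and -0.52 at 3D, 2W and 6W of glaucoma (adjusted p = 0.531, 0.489 and 0.849), all inside the fold limit of 1. Ank3 and Kcna2 were the genes with an unadjusted p under 0.05 at crush 2W, where 16% of all genes had one. Nfasc was at 342 and 347 CPM at crush 3D and 226 and 198 at 2W, beside 330.2 and 304, with an NF155 share of 92.8% to 98.0%. Over the same groups the oligodendrocyte marker sum of MON went from 17404 and 13596 FPKM in naïve to 11609 and 8529 at 3D and 5634 and 6436 at 2W, and the sum of 5 microglia and macrophage markers from 133 and 137 to 582 and 826 and to 954 and 409. The part of these cells in the levels of Ank3, Nfasc and the Kv1 genes was not tested.

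In retina, Scn1a and Scn2a had their lowest group means at crush 2W. Scn1a was at 73.8 and 64.2 CPM in naïve retina, 49.9 and 35.9 at crush 3D and 20.7 and 33.7 at crush 2W, and the groups did not overlap. The log2 difference at 2W was -1.38 (SE 0.29, edgeR adjusted p = 0.166). Scn2a was at 16.5 and 20.9 CPM at 2W beside 28.6 and 32.2 (-0.74, SE 0.15, adjusted p = 0.165). Scn8a did not share this order, at 39.9 and 21.5 CPM at crush 3D and 38.0 and 46.9 at 2W beside 38.5 in both naïve pools. Kcna2 (-0.83, adjusted p = 0.41), Cntn1 (-0.40, adjusted p = 0.342) and Cntnap1 (-0.68, adjusted p = 0.346) also had an unadjusted p under 0.05 at 2W, so that 5 of 10 genes did, beside 8.99% of all genes. DESeq2 called Scn1a alone of the 10 (-1.38, adjusted p = 1.14e-05), with 1.51% of all genes called. By edgeR, Scn1a was called without the male crush 3D pool (adjusted p = 0.0448) or the male crush 2W pool (-1.96, adjusted p = 0.00882), and Kcna2 without the male crush 2W pool (-1.39, adjusted p = 0.0339). The 8 RGC markers, none at 0 in these pools, summed to 390 and 334 FPKM in naïve retina, 226 and 194 at crush 3D and 64.8 and 68.0 at crush 2W, and their part in the Scn1a level was not tested. Retinal Ank3 (77.5 and 85.0 CPM), Nfasc (120 and 80.5) and Cntnap2 (62.1 and 54.4) at crush 2W had log2 differences of 0.00, -0.11 and -0.22. No member had an unadjusted p under 0.05 in retina at crush 3D.

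**Figure D4:**
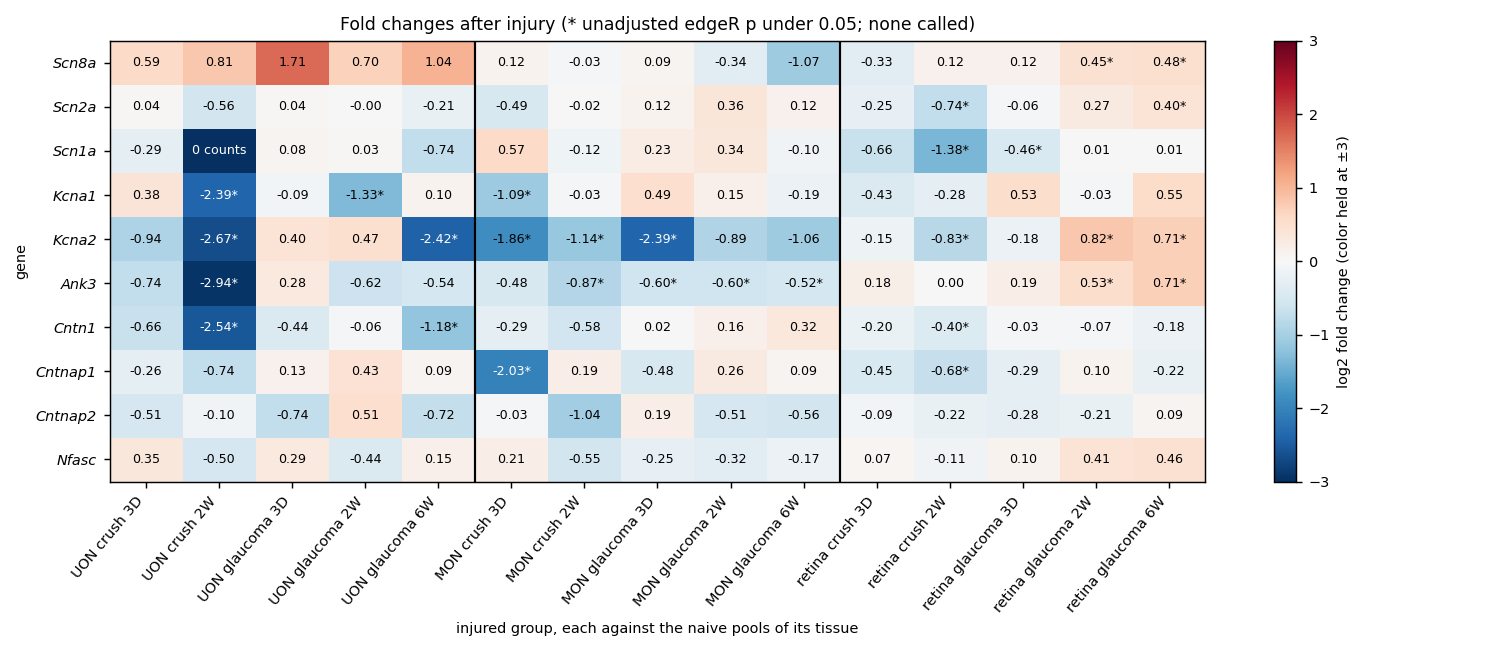
Log2 fold change of each gene in each injured group against the naïve pools of its tissue, with color held at 3 in size and a star where the unadjusted edgeR p was under 0.05. The lowest values stood in UON at crush 2W, where Scn1a had 0 counts, and no gene was called.

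Glaucoma was set against naïve tissue at 3D, 2W and 6W to ask how ocular hypertension altered the same genes over time. No member was called by edgeR, and the share of all genes called was 0% at 3D, 2W and 6W in UON and in MON, and 0.00429%, 0% and 0.00858% in retina. In UON, 0, 1 and 2 genes had an unadjusted p under 0.05, beside 3.57% of all genes at 2W and 2.01% at 6W. Kcna1 was at 22.1 and 19.0 CPM at 2W (-1.33, edgeR adjusted p = 1), below both naïve pools, and at 39.7 and 67.9 at 6W, which spanned them. Kcna2 was at 0.658 and 3.74 CPM at 6W (-2.42) and Cntn1 at 16.3 and 9.91 CPM (-1.18), each below both naïve pools. Scn8a was at 10.6 CPM in the female and 1.79 in the male pool of UON at 3D, and the female pool also had the highest oligodendrocyte marker sum of the UON libraries, 5359 FPKM. In MON the genes with an unadjusted p under 0.05 were Ank3 at all 3 times and Kcna2 at 3D (2.57 and 17.0 CPM, -2.39, adjusted p = 0.452), beside 8.07%, 8.78% and 4.91% of all genes. DESeq2 called Kcna2 in MON at 3D (-2.38, adjusted p = 0.00632), where it called 2.31% of all genes.

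In retina the glaucoma values of several members lay above naïve at the later times. Kcna2 was at 36.8 and 38.7 CPM at 3D, 67.9 and 85.2 at 2W and 73.2 and 66.0 at 6W, beside 40.3 and 45.5 naïve, with log2 differences of 0.82 at 2W (SE 0.16, edgeR adjusted p = 0.49) and 0.71 at 6W (adjusted p = 0.642). Ank3 was at 104 and 127 CPM at 2W and 151 and 111 at 6W beside 89.7 and 70.8 (0.53 and 0.71, adjusted p = 0.782 and 0.768). Scn8a was at 45.4 and 60.7 CPM at 2W and 56.5 and 50.1 at 6W beside 38.5 in both naïve pools (0.45 and 0.48). In each of these 3 genes all 4 pools of 2W and 6W lay above both naïve pools, and the share of all genes that did so was not computed. Scn2a was at 37.6 and 36.6 CPM at 2W and 43.5 and 36.5 at 6W beside 28.6 and 32.2. The number of genes with an unadjusted p under 0.05 was 1 at 3D (Scn1a, 39.9 and 62.1 CPM), 3 at 2W and 4 at 6W, beside 6.09%, 6.29% and 5.67% of all genes, and DESeq2 called none at these times. The RGC marker sum was 165 FPKM in the female and 322 in the male pool at 3D, where the female pool also had the lower Scn1a value, and the part of these cells in it was not tested. It was 324 and 260 FPKM at 2W and 278 and 326 at 6W, below the naïve 390 and 334.

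Whether UON and MON responded differently was tested by the difference of their log2 fold changes, in a fit without a term for the mice that gave both segments. No member was called by edgeR in these 5 comparisons (50 tests), 4 had an unadjusted p under 0.05, and DESeq2 called 1. With the pool of mice as a block edgeR called 0 as well, and 7 had an unadjusted p under 0.05. These were Scn1a, Cntn1, Kcna1 and Ank3 at crush 2W, Ank3 at glaucoma 3D, Kcna1 at glaucoma 2W and Cntn1 at glaucoma 6W. The share of all genes with such a p in the blocked fit was not computed. That fit called 10 of 25011 genes at crush 3D and 23 at crush 2W. At the 3 times of glaucoma it called 0, 1 and 0 of 25807. The share of all genes called without the block was 0.012% at crush 3D, 0% at crush 2W, and 0%, 0% and 0% at the 3 times of glaucoma. Without the block, Cntn1 at crush 2W fitted lower in UON by a further -1.96 (SE 0.63, edgeR adjusted p = 0.3). Scn1a there, at 0 counts in UON beside 1.76 and 0.889 CPM in MON, had an adjusted p of 0.146. These were 2 of 10 genes beside 10.9% of all genes with an unadjusted p under 0.05, and DESeq2 called Scn1a with 3.6% of all genes called. Ank3 at glaucoma 3D and Cntn1 at glaucoma 6W were the others, beside 5.86% and 3.1% of all genes.

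Crush and glaucoma were compared directly at the times they share. By edgeR no member was called in 6 comparisons (60 tests), 12 had an unadjusted p under 0.05, and DESeq2 called 7. At 3D and 2W the share of all genes called was 0% and 0.0418% in UON, 0.0162% and 0.0485% in MON and 0.0081% and 0.113% in retina. The clearest contrast was retinal Kcna2 at 2W, with 16.2 and 35.5 CPM after crush and 67.9 and 85.2 in glaucoma (-1.60, SE 0.26, edgeR adjusted p = 0.0649). Retinal Scn1a was at 20.7 and 33.7 CPM beside 66.7 and 74.3 (-1.39, SE 0.26, adjusted p = 0.111), and Scn2a at 16.5 and 20.9 beside 37.6 and 36.6 (-1.01, SE 0.19, adjusted p = 0.121). In these 3 genes the injuries did not overlap, and the share of all genes without overlap was not computed. With Ank3 and Cntnap1 they made 5 of 10 genes with an unadjusted p under 0.05, beside 8.12% of all genes. DESeq2 called Scn2a, Scn1a and Kcna2 there, with 0.797% of all genes called. In UON at 2W, Cntn1 (-2.40), Kcna2 (-3.09) and Ank3 (-2.08) had edgeR adjusted p of 0.303, 0.408 and 0.404, and Scn1a was at least 37.6-fold lower after crush. These 4 genes had an unadjusted p under 0.05, beside 10.2% of all genes, and DESeq2 called all 4, with 2.58% of all genes called. In MON, Kcna1 (-1.59, adjusted p = 0.38) and Cntnap1 (-1.58, adjusted p = 0.445) at 3D and Cntn1 at 2W had an unadjusted p under 0.05, beside 10.4% and 7.51% of all genes.

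The 10 genes were read against 31 other genes of the node complex, all of which were tested. Between naïve UON and MON, 3 of the 31 were called higher and 10 lower in UON, where 9.63% of all genes were called. The median log2 difference was -0.43, and 17 of the 31 lay below 0. None of the 9 juxtaparanodal and 6 paranodal genes was called higher in UON, while 4 and 3 were called lower. Called higher by most was Sptbn4, the βIV spectrin that links ankyrin-G to actin (3.90, SE 0.35, edgeR adjusted p = 0.00161). Next was Gldn, the gliomedin of Schwann cell microvilli at peripheral nodes (3.14, adjusted p = 0.0039). Lower by most were the perinodal matrix genes Tnr (-3.62, adjusted p = 0.00139) and Hapln2 (-3.59, adjusted p = 0.0105). Against retina, 15 were called higher and 9 lower in UON (31.7% of all genes called), and 16 higher and 8 lower in MON (27.6%). Like the 3 sodium channel genes, the β2 subunit gene Scn2b (-3.78 in MON) was lower in nerve than in retina.

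After injury the same test called 1 of the 31 genes in UON at crush 2W (0.0281% of all genes) and 1 in MON at crush 3D (4.26%). It called 4 in MON at crush 2W (2.72%) and 1 in retina at crush 2W (0.313%). In the other 11 comparisons with naïve tissue it called none. Sptbn4 fell in UON at crush 2W (-8.69, SE 0.76, edgeR adjusted p = 0.0336), from 308 and 524 CPM in naïve to 1.77 and 0.602. In MON it was at 31.8 and 21.9 CPM in naïve and 0.693 and 0 at crush 2W (adjusted p = 0.0295). Ank3, whose product binds this spectrin, was lowest in UON in the same group. Gldn rose in MON at crush 3D (1.96, SE 0.39, adjusted p = 0.0364) and 2W (4.55, adjusted p = 0.0106), from 3.26 and 2.89 CPM to 54.5 and 86.2 at 2W. Fgf13, a cytosolic partner of sodium channels, rose (2.60, adjusted p = 0.0485) and Hapln2 fell (-1.70, adjusted p = 0.0349) in MON at crush 2W, and Lgi3, a ligand of juxtaparanodal ADAM proteins, fell in retina at crush 2W (-1.55, adjusted p = 0.0393). No gene of the 31 was called in retina at crush 2W without the sex term or with all 36 libraries in 1 fit.

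To place each gene among others, Pearson's r of log2 CPM was computed over the 36 libraries after the mean of each tissue was subtracted, with 30096 other genes. These values are descriptions, since the libraries share pools, mice and depth. Ank3 had the highest likeness, to Snap91 (r = 0.93) and Kif21a (0.91), genes of synaptic vesicle endocytosis and of an axonal kinesin. Scn1a was most like Tmem151b (0.85) and Coro2a (0.84), Cntn1 like Opn4 (0.84), the melanopsin of intrinsically photosensitive RGCs, and 6430511E19Rik (0.79), and Cntnap1 like Raver2 (0.84) and Nfatc4 (0.83). Nfasc was most like Tubb4a (0.80), the tubulin of myelinating oligodendrocytes, and Anks1b (0.80). A further 4 genes reached 0.67 to 0.71, Scn8a with Piwil2 and Gpr84, Kcna1 with Zfp442 and Nkx2-2os, Kcna2 with Gm43668 and Nrbp2, and Cntnap2 with Tarsl2 (its next, Map2k6, at 0.61). Among the 10 genes, the pairs that moved most alike were Scn1a and Ank3 (0.74), Kcna1 and Ank3 (0.66), Scn1a and Cntn1 (0.65) and Ank3 and Cntn1 (0.62). Each of these genes had its lowest UON group mean at crush 2W, and r without those libraries was not computed.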

How the data were processed

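Paired reads had been mapped by the authors with HISAT2 2.2.1 (GRCm38) and assembled by StringTie 1.3.0 on Gencode annotation. The deposited gene and transcript tables hold estimated counts, which the StringTie script derives from coverage and transcript length. The authors also deposited StringTie tables with FPKM and TPM values per library. Libraries came from an ultra-low-input kit, without stated molecular identifiers or strand use in counting. Every sample column matched a label, with 0 left unmapped.

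Counts were tested with edgeR 4.0.16 (quasi-likelihood F test, TMM, filterByExpr with a minimum count of 10, terms for group and sex) in R 4.3.3, within a tissue, over naïve tissues, or over 2 tissues or injuries for differences of response. The scripts were tested on simulated data. Alternatives were DESeq2 1.42.0, the tool the authors used, RLE size factors, no count filter, no sex term, all 36 libraries in 1 fit, each library left out, and TPM in place of FPKM. Since both nerve segments of a pool came from the same mice, the difference of response was also fitted with the pool as a block, an alternative chosen after seeing the data. Across genes, the female minus male differences of log2 CPM in UON and MON had a Pearson r of -0.03 to 0.10 over the 6 conditions. Fold changes are on edgeR's log2 scale. CPM values used TMM factors over 36 libraries, and transcript CPM the same library sizes.

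The text names all 10 genes, of the other node genes at most the 2 called genes with the largest change each way per comparison, and for likeness the 2 genes with the highest r, except that the likeness of Scn2a is not reported here. The members and lists were chosen with earlier results of these data known. Exon positions and transcript classes came from Gencode M21 on GRCm38, a release near the one the authors used, and promoter windows from RefSeq, which held windows for 7 of the 10 genes. Depth was 16.2 M to 78.1 M counts per library, and each group had 2 pools.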

Additional observations from a re-analysis of the deposited data

How the results depend on the processing

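The alternatives were followed for 69 fold changes of the 10 genes, those called or with an unadjusted p under 0.05 in 290 tests, and none of these reversed. Under the settings that keep all libraries of a fit, 304 values kept their side of the threshold, 42 passed it newly and 3 lost it. In naïve tissue, DESeq2 and the fit without the count filter each gave 7 calls for UON against MON and 6 for UON against retina, where the main test gave 5 and 5. Calls among the 10 genes, 0 by the main test, became 5 by DESeq2 and 3 with all 36 libraries in 1 fit in UON after crush. They became 2 by DESeq2, 1 without the count filter and 1 in the joint fit in MON after crush, and 1 by DESeq2 and 1 without the count filter in retina after crush. DESeq2 gave 1 in MON in glaucoma. For the difference of response between UON and MON the counts were 1 by DESeq2, 4 without the filter and 1 in the joint fit, and for crush against glaucoma 7, 6 and 4. The cause was not tested. The shares of all genes called without the filter, in the joint fit and by DESeq2 in naïve tissue were not set beside these counts. The added calls under these settings therefore cannot be read as particular to the 10 genes.

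With each library left out in turn, the counts ran from 4 to 6 for naïve UON against MON, 5 to 6 for UON against retina, 7 to 8 for MON against retina, 0 to 1 in UON after crush, 0 to 3 in MON after crush, 0 to 2 in retina after crush, 0 to 0 in glaucoma, 0 to 3 for the difference of response and 0 to 2 for crush against glaucoma. Where a library was left out, the remaining one was assumed to vary like the other groups.

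The labels share sex but no replicate number between groups. Within naïve tissue the sex term is also the term for the pool of mice. For the difference of response between UON and MON, the mouse pool as a replicate block gave 0 calls. Without the sex term (no replicate block), the counts were 4, 5 and 8 in the naïve comparisons and 0 in all others, and Kcna1 between UON and MON lost its call (adjusted p = 0.0534). In the joint fit Ank3 lost both its calls (adjusted p = 0.105 and 0.0655). Of the 31 other node genes, the calls after crush ranged over these settings from 1 to 2 in UON at 2W, 2 to 4 in MON at 3D (1 by the main test), 3 to 10 in MON at 2W (4) and 0 to 7 in retina at 2W (1). Shares of all genes under each setting were not set beside these ranges. TPM gave the same shares as FPKM, but this could not come out otherwise, since both units differ by a constant factor within a library. Scn1a in UON had at most 105 counts in a library. Both crush 2W pools of UON, with 0 counts of this gene, had summed counts of 50.7 M and 58.5 M. The part of depth in its low counts was not tested.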

Other observations

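The deposited FPKM of Scn8a in naïve MON was 1.59 in the female and 0.242 in the male pool, although its CPM was 4.85 and 3.43. FPKM and gene counts of this gene therefore gave different spreads between the same pools.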
